A study of Mus musculus with 12 samples.

Results

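Transcript levels of 9 genes of peroxisomal fatty acid oxidation and peroxisome proliferation, Phyh, Hacl1, Abcd3, Ehhadh, Acaa1a, Acaa1b, Decr2, Crot and Pex11a, were compared in kidneys of control and cannabidiol-treated mice. These are 9 of the 57180 Ensembl genes counted in each library, and all 9 were among the 17163 genes with enough counts to be tested. The set was chosen from results of these same kidneys: Hacl1 and Decr2 were named by the study among its genes altered by treatment, and the others were listed with the outcome of the comparisons with the control group known. The differences of the 9 genes from the control group are therefore given as a description. Calls of the fit over all genes are counted for them beside the share of all genes called, and are not independent evidence for the set.

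Cannabidiol (CBD) is a major non-intoxicating cannabinoid of the hemp plant. Male C57BL/6J mice, 60 days old at the start, received 1 intraperitoneal injection a day for 28 days, of 10 mg CBD/kg b.w. (group 10CBD), of 20 mg CBD/kg b.w. (group 20CBD) or of the carrier alone (group Control). The carrier, saline with 2% Tween 80, was given to all 3 groups, which held 4 mice each with 1 poly(A) RNA library per kidney. C57BL/6J is an inbred laboratory strain, only males were used, and the time of day of tissue collection is not given in the sources used here.

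Peroxisomes shorten fatty acids that mitochondria handle poorly, such as very long-chain, branched and dicarboxylic acids. The acids enter as coenzyme A esters through ABCD transporters of the membrane, pass through oxidation, hydration, dehydrogenation and thiolytic cleavage, and leave as shortened acylcarnitines for the mitochondria. Phytanic acid, whose methyl branch blocks beta oxidation, is first shortened by alpha oxidation. In the kidney these organelles are abundant in the proximal tubule, and in rodent liver many of the genes are known targets of the nuclear receptor PPAR alpha.

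Both thiolase genes of the set, Acaa1a and Acaa1b, are nearly the same in sequence, which bears on how well reads can be assigned to each. Over their coding regions of 1272 bases each, 1228 bases were identical (96.5%). The first 120 coding bases are shown because they lie in 1 exon of each gene and hold only 4 differences, printed in capitals. They are read from GENCODE vM39 transcripts, Acaa1a at chr9:119170581-119170700 on the plus strand and Acaa1b at chr9:118985943-118986062 on the minus strand of GRCm39.
Acaa1a: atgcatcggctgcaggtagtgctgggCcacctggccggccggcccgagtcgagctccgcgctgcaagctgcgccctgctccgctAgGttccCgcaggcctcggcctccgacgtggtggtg
Acaa1b: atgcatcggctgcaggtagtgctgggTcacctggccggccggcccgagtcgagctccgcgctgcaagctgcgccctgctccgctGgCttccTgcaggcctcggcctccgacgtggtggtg
In windows of 100 bases, 21.1% of those of the Acaa1a transcript were also found in the Acaa1b transcript, and 22.6% of those of Acaa1b in Acaa1a. The study sequenced paired reads longer than these windows, so these are not shares of reads. How reads from stretches shared by both genes were counted is not given in the sources used here, so the separate values of the 2 thiolases are uncertain.

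Sequence around the start sites was searched from 3000 bases before to 1000 bases after the start of each gene for 3 motifs on both strands, since PPAR and clock genes differed in these kidneys. The direct repeat bound by PPAR with RXR, AGGTCANAGGTCA with at most 1 mismatch, was found near 1 of the 9 genes, Acaa1b, and in 7.75% of 13760 such windows. The D-box bound by Dbp and its relatives, TTATGTAA or TTACGTAA, was found near 2 of the 9, Ehhadh and Crot, and in 13.8% of windows. The E-box CACGTG was found near 1 of the 9, Acaa1b, and in 46.9% of windows. The PPAR-type and D-box matches are shown with 20 bases on each side, in the direction of the gene, with the matching bases in capitals. The match of Acaa1b begins at position -955 from its start (chr9:118987084-118987136), that of Ehhadh at -2112 (chr16:21608648-21608695) and that of Crot at -747 (chr5:9048113-9048160). All 3 stretches are printed from the minus strand of GRCm39, the strand of these genes, and lie in no annotated gene. The matches of Acaa1b and Ehhadh are on the opposite strand to the gene, so the reverse complement of the motif is printed. That of Crot is on the strand of the gene.
Acaa1b: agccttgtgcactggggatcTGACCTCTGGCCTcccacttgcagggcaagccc
Ehhadh: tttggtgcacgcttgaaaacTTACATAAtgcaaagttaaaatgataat
Crot: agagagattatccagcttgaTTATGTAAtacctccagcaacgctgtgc
No window of Hacl1 or Decr2 held any of the 3 motifs. A match describes letters only, and binding was not measured.

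The 12 libraries held between 15417867 and 23532088 counts on genes. The share of counts on mitochondrially encoded genes set 4 libraries apart, Control 2, 10CBD 1, 10CBD 3 and 20CBD 3, at 3.53 to 5.77% against 12.8 to 23.4% in the other 8. Kidney markers were high in every library, with the 8 markers of the first proximal segments summing to 6227 to 10373 CPM, the count scaled to a common library size. Library sizes were scaled by TMM for all CPM values below, and log2 fold changes are given with their standard error (SE) from edgeR.

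In the kidneys of control mice the 9 transcripts spanned a wide range of levels. Per kilobase of annotated exon (CPM per kb, mean ± SD, n = 4 mice), Ehhadh was the most abundant at 315 ± 113, followed by Acaa1b at 84.5 ± 13.3, Phyh at 78.1 ± 5.72, Abcd3 at 73.2 ± 9.28, Crot at 45.0 ± 7.35, Pex11a at 33.4 ± 5.47, Decr2 at 22.4 ± 4.11, Acaa1a at 10.9 ± 2.26 and Hacl1 at 1.11 ± 0.123. The ranges over mice overlapped between Acaa1b and Phyh, between Phyh and Abcd3, between Crot and Pex11a and between Pex11a and Decr2, and did not overlap between the other neighbours in this order. For some genes the joined length of all annotated exons is several times that of the canonical transcript. Divided by the length of the canonical transcript instead, Ehhadh stayed first at 327 ± 117 and Hacl1 last at 2.35 ± 0.260, while Phyh moved to rank 2 at 290 ± 21.2, with a range that overlapped that of Ehhadh, and Acaa1a to rank 6 at 53.4 ± 11.0. On both scales Acaa1b was the more abundant thiolase transcript, with no overlap between the 2 genes. Hacl1 shares 42155 bases of its span with the gene model Gm49387 on the same strand, which had 0 counts. How reads lying in both models were counted is not given, so the last place of Hacl1 is uncertain on both scales.

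**Figure D1:**
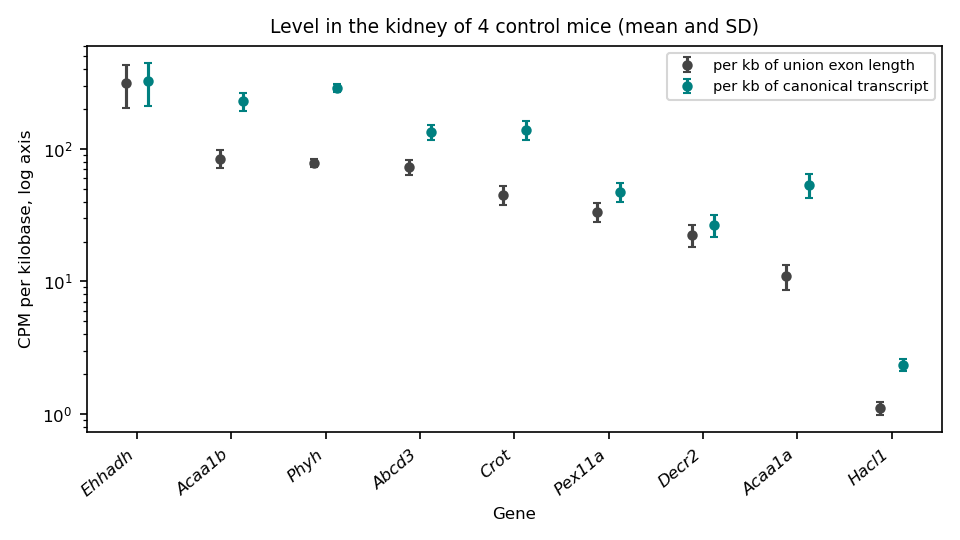
Level of each gene in the kidney of control mice in CPM per kilobase on a log axis, as mean and SD of 4 mice, divided by union exon length or by canonical transcript length. Ehhadh lies highest and Hacl1 lowest on both scales, and Phyh and Acaa1a change place with the length used.

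Across the set, every treated mouse lay above every control mouse for Hacl1 at both doses and for Decr2 at 20 mg. Of all genes, 1.55% did so at 10 mg and 2.67% at 20 mg. Hacl1 and Decr2 are the genes that the study had named, and the rest of the set overlapped the control group at both doses. At 10 mg, 6 of the 9 genes had a log2 fold change above 0 and 3 below, with a median of 0.18 beside 0.01 for all genes tested. At 20 mg the same counts applied, 6 above and 3 below, with a median of 0.22 beside 0.01 for all genes. With edgeR's quasi-likelihood test at a Benjamini-Hochberg adjusted p under 0.1, none of the 9 genes was called at 10 mg, where 0.0291% of all genes were. At that dose 1 of them (Hacl1) had an unadjusted p under 0.05, as had 973 of all 17163 genes. DESeq2 also called 0 of the 9 at that dose. At 20 mg 1 of the 9, Hacl1, was called, where 0.303% of all genes were. There 2 of the 9 had an unadjusted p under 0.05, as had 1450 of all 17163 genes. DESeq2 also called Hacl1 alone of the 9 at 20 mg, and 167 genes in all. Since the genes were chosen on these comparisons, nothing is read from these counts.

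**Figure D2:**
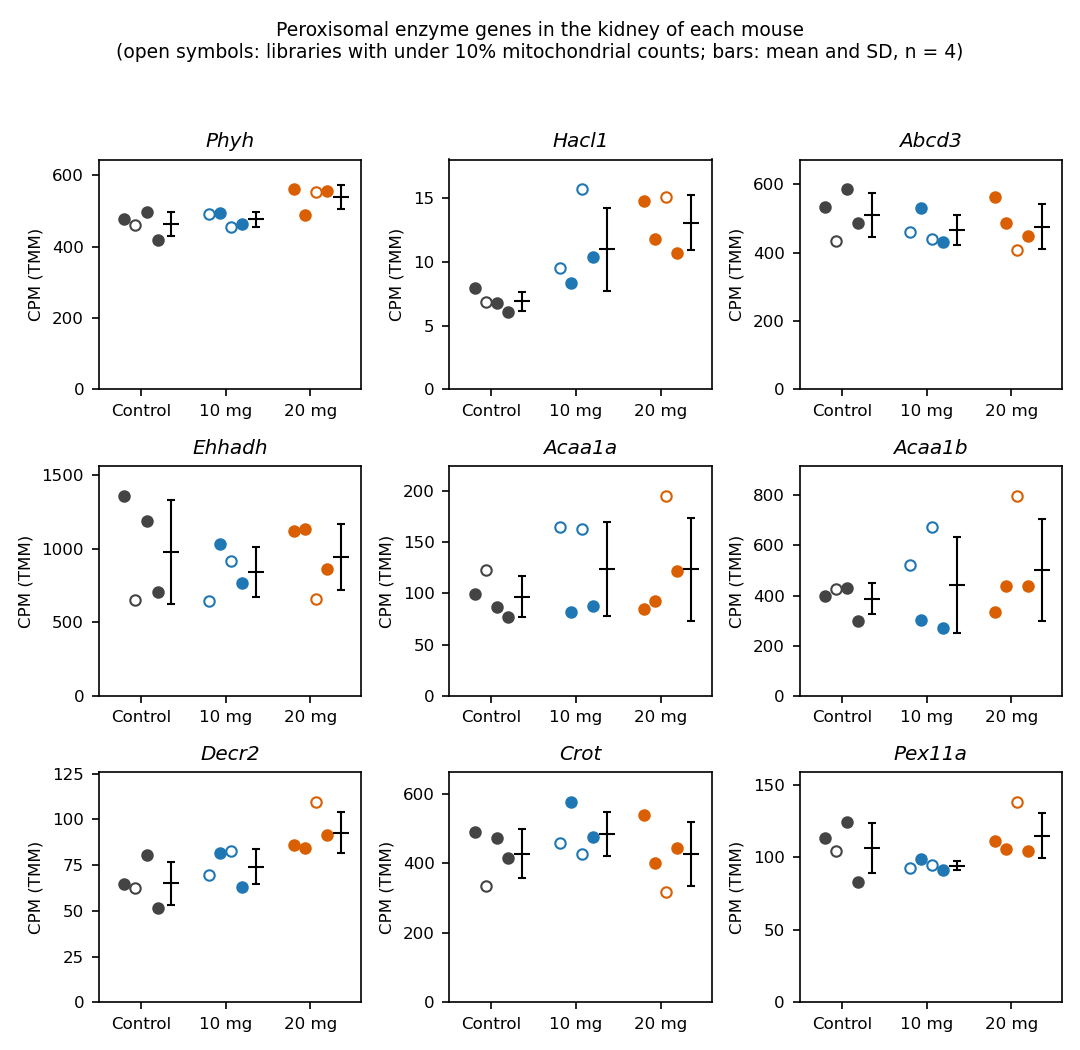
CPM of each gene in the kidney of every mouse, by group, with the mean and SD of 4 mice beside the points and axes from 0. Open symbols are the 4 libraries with under 10% of counts on mitochondrial genes. The Hacl1 points of both treated groups lie above all control points, and the Acaa1a and Acaa1b points of the open symbols lie high in the treated groups.

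Alpha oxidation is represented by Phyh and Hacl1. Hacl1 (ENSMUSG00000021884, chr14:31320681-31363243, minus strand) encodes 2-hydroxyacyl-CoA lyase, which cleaves the hydroxylated phytanoyl-CoA to a fatty aldehyde one carbon shorter. Its level was 7.94, 6.87, 6.75 and 6.09 CPM in control mice 1 to 4. It was 9.55, 8.31, 15.7 and 10.4 CPM at the dose of 10 mg CBD/kg b.w. and 14.8, 11.8, 15.1 and 10.7 CPM at the dose of 20 mg. Every treated mouse was above every control mouse at both doses, while both treated groups overlapped each other. The log2 fold change was 0.67 ± 0.20 at 10 mg and 0.92 ± 0.20 at 20 mg, which is 1.59 and 1.89 times the control level. Of all genes, 1.55% had all treated mice above all controls at 10 mg and 2.67% at 20 mg. The counts behind Hacl1 were the lowest of the set, 112 to 347 reads a library.

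The call of Hacl1 at 20 mg was close to the threshold. It was kept when library 10CBD 2 or 10CBD 3 was left out and lost when any 1 of the other 10 libraries was left out, with a log2 fold change of 0.84 to 1.00 over all 12 fits. It was lost with RLE scaling (0.91), with limma-voom (0.90) and at an adjusted p under 0.05. The call was kept with DESeq2, without a filter on low counts and with at least 10 counts in every library. The study itself named Hacl1 by DESeq2 on these kidneys, so the DESeq2 call is no separate support. It was also kept in the fit of only the 2 groups compared and without mitochondrial and rRNA genes. In the 8 libraries of higher mitochondrial share the log2 fold change was 0.84 ± 0.17 at 20 mg, with the call kept, and 0.43 ± 0.20 at 10 mg. That fit lacks mouse 2 of the control group, mice 1 and 3 of the 10 mg group and mouse 3 of the 20 mg group. On the annotation, Hacl1 shares 267 bases with Btd on the opposite strand and 42155 bases of its span with the gene model Gm49387 on the same strand, which had 0 counts in all libraries. The strand setting and the treatment of reads lying in both models are not given in the sources used here, so the level of Hacl1 is uncertain to that extent. The log2 fold change of Btd was -0.02 at 10 mg and -0.06 at 20 mg.

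Phyh (ENSMUSG00000026664, chr2:4923653-4950446, plus strand) encodes phytanoyl-CoA hydroxylase, the first enzyme of alpha oxidation and the enzyme lacking in most patients with Refsum disease. It was measured at 478, 462, 498 and 418 CPM in control mice, at 491, 496, 456 and 462 CPM at 10 mg and at 560, 490, 554 and 556 CPM at 20 mg. Mice 1, 3 and 4 of the 20 mg group were above every mouse of the other groups and mouse 2 was within the control range. Its log2 fold change was 0.037 ± 0.11 at 10 mg and 0.22 ± 0.11 at 20 mg, beside 0.67 and 0.92 for Hacl1. Phyh had the smallest spread relative to its level in the control group among the 9, with a SD of 34.0 around a mean of 464 CPM.

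Import of the substrates is represented by Abcd3 (ENSMUSG00000028127, chr3:121552423-121609141, minus strand), the PMP70 half-transporter for branched-chain and dicarboxylic acyl-CoA esters. Its level was 434 to 585 CPM in control mice, 433 to 530 CPM at 10 mg and 407 to 561 CPM at 20 mg. All 3 groups overlapped, and the log2 fold change was -0.13 ± 0.14 at 10 mg and -0.10 ± 0.14 at 20 mg.

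Ehhadh (ENSMUSG00000022853, chr16:21580036-21606563, minus strand) encodes the peroxisomal L-bifunctional enzyme, with hydratase and dehydrogenase activity. It was at 1358, 655, 1192 and 704 CPM in the control mice, at 646, 1034, 915 and 765 CPM at 10 mg and at 1118, 1136, 662 and 860 CPM at 20 mg. The spread within the control group, from 655 to 1358 CPM, covered all values of the 20 mg group and all but the lowest of the 10 mg group. Log2 fold changes of Ehhadh were -0.22 ± 0.25 at 10 mg and -0.050 ± 0.25 at 20 mg.

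Acaa1a (ENSMUSG00000036138, chr9:119168742-119182956, plus strand) and Acaa1b (ENSMUSG00000010651, chr9:118977091-118986161, minus strand) encode peroxisomal 3-ketoacyl-CoA thiolases, which release acetyl-CoA in the last step of each cycle. Acaa1a was at 99.4, 123, 86.7 and 77.0 CPM in control mice, at 165, 81.5, 162 and 87.2 CPM at 10 mg and at 84.5, 92.5, 195 and 121 CPM at 20 mg. Acaa1b was at 398, 426, 428 and 299 CPM, at 522, 302, 673 and 269 CPM and at 336, 436, 797 and 440 CPM in the same order. In both genes 10CBD 1, 10CBD 3 and 20CBD 3 were the highest 3 of the 12 libraries, and the remaining treated mice lay within or close to the control range. The log2 fold change of Acaa1a was 0.36 ± 0.28 at 10 mg and 0.35 ± 0.28 at 20 mg, and that of Acaa1b was 0.19 ± 0.29 and 0.37 ± 0.29. Without 20CBD 3 alone, the values at 20 mg were 0.042 for Acaa1a and 0.058 for Acaa1b. Without 10CBD 3 alone, that of Acaa1b at 10 mg was -0.090. These 3 libraries are of low mitochondrial share. Without the 4 libraries of low share the values were -0.060 ± 0.15 and 0.18 ± 0.14 for Acaa1a and -0.39 ± 0.17 and 0.11 ± 0.15 for Acaa1b. The direction at 10 mg thus turned for both genes, with only mice 10CBD 2 and 10CBD 4 left in that group.

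Decr2 (ENSMUSG00000036775, chr17:26300178-26309528, minus strand) encodes peroxisomal 2,4-dienoyl-CoA reductase, an auxiliary enzyme for unsaturated acids. It was measured at 64.9, 62.6, 80.6 and 51.8 CPM in control mice, at 69.4, 81.7, 82.7 and 62.9 CPM at 10 mg and at 85.8, 84.7, 109 and 91.5 CPM at 20 mg. All mice of the 20 mg group were above all mice of both other groups, whereas the 10 mg group overlapped the control group. The log2 fold change was 0.19 ± 0.15 at 10 mg and 0.51 ± 0.15 at 20 mg, which is 1.14 and 1.43 times the control level. Decr2 was not called at 20 mg by the main test or by DESeq2. The study did name Decr2 among its altered genes, with DESeq2 run through iDEP at a corrected p under 0.1. The reason for this difference between DESeq2 runs was not tested. Among the alternatives it was called only with the mitochondrial share as a covariate (as were Hacl1 and Acaa1a) or with low share as a factor (as was Hacl1). Over all genes those fits called 1386 and 293 genes at 20 mg, against 52 in the main fit. Without the 4 libraries of low share its log2 fold change at 20 mg was 0.41 ± 0.15.

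Export is represented by Crot (ENSMUSG00000003623, chr5:8985926-9047393, minus strand), carnitine octanoyltransferase, which hands the shortened chains to carnitine. Its level was 335 to 489 CPM in control mice, 427 to 574 CPM at 10 mg and 317 to 539 CPM at 20 mg. Groups overlapped, with a log2 fold change of 0.18 ± 0.17 at 10 mg and -0.0079 ± 0.17 at 20 mg.

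Pex11a (ENSMUSG00000030545, chr7:79385705-79392879, minus strand) encodes a membrane peroxin that elongates and divides peroxisomes and is inducible by peroxisome proliferators. It was at 114, 105, 124 and 83.3 CPM in control mice, at 92.7, 98.9, 94.6 and 91.3 CPM at 10 mg and at 112, 106, 138 and 104 CPM at 20 mg. Both treated groups overlapped the control group, and all mice of the 20 mg group were above all mice of the 10 mg group. For Pex11a this gave log2 fold changes of -0.17 ± 0.13 at 10 mg and 0.11 ± 0.13 at 20 mg.

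**Figure D3:**
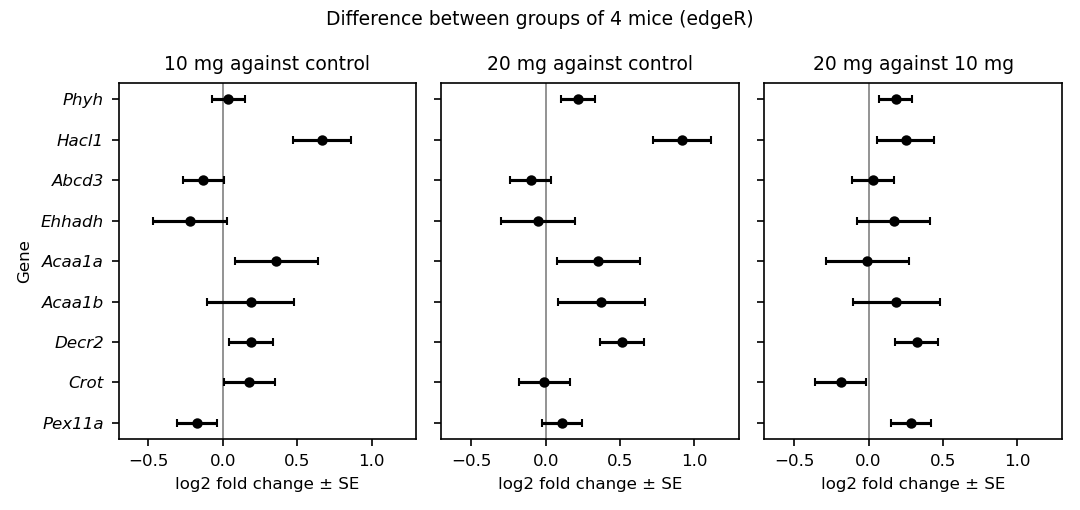
Log2 fold change with SE of each gene for 10 mg against control, 20 mg against control and 20 mg against 10 mg, from edgeR with 4 mice a group. Hacl1 has the largest value in both comparisons with the control group, 0.67 and 0.92, and the values for 20 mg against 10 mg lie between -0.19 and 0.32.

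The 2 doses were also compared with each other, a comparison that the choice of genes did not name. It shares its treated mice with the comparisons above. With edgeR, 0 of the 9 genes and 0% of all genes passed an adjusted p of 0.1. Of the 9 genes 1 had an unadjusted p under 0.05 (Decr2), as had 1083 of all 17163 genes, and DESeq2 called 0 of the 9. The largest differences were those of Decr2 (log2 fold change 0.32 ± 0.15, adjusted p = 0.782 from edgeR) and Pex11a (0.28 ± 0.13, adjusted p = 0.785). These are also the 2 of the 9 genes with every mouse of the 20 mg group above every mouse of the 10 mg group, where 1.7% of all genes were higher and 1.4% lower without overlap. For Hacl1 the difference was 0.25 ± 0.19 with an adjusted p of 0.878 from edgeR, so a difference between doses was not resolved with 4 mice a group. The remaining 6 genes had log2 fold changes of -0.19 to 0.19 and edgeR adjusted p-values of 0.831 to 0.998. Of the 9 genes, none lay wholly below the control group at either dose, where 1.64% of all genes did at 10 mg and 2.63% at 20 mg.

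Several of the 9 genes varied with the mitochondrial share of the library. Over the 12 libraries Pearson's r between log2 CPM and the mitochondrial share was -0.81 for Acaa1a and -0.60 for Acaa1b, and 0.67 for Ehhadh, 0.63 for Abcd3 and 0.48 for Crot. It was between -0.06 and 0.18 for Hacl1, Decr2, Pex11a and Phyh. These are descriptions over libraries that share their group and their scaling to 1 library total. Acaa1a was at 123 to 195 CPM in the 4 libraries of low share and at 77.0 to 121 CPM in the other 8, without overlap. Ehhadh was at 646 to 915 CPM in the low-share libraries and at 704 to 1358 CPM in the others.

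A test of low against higher mitochondrial share within groups, chosen after these values were seen, called 4 of the 9 genes, and it called 37% of all genes, so the share of the 9 genes is read against that of the whole transcriptome. By edgeR, Acaa1a was higher in the low-share libraries by a log2 fold change of 0.83 ± 0.11 (adjusted p = 0.000136) and Acaa1b by 0.80 ± 0.15 (adjusted p = 0.000867). Ehhadh fell by 0.49 on the log2 scale (SE 0.17, adjusted p = 0.0412 by edgeR) and Crot fell by 0.39 (SE 0.11, adjusted p = 0.0112). Hacl1 was not called (0.26 ± 0.15, edgeR adjusted p = 0.215), nor were Decr2, Phyh, Pex11a and Abcd3. Reference enzymes of the same organelle also differed in direction. Cat, the catalase that removes hydrogen peroxide, fell by 0.61 (SE 0.12, edgeR adjusted p = 0.00127), whereas Hsd17b4, the D-bifunctional enzyme, rose by 0.37 ± 0.12 (adjusted p = 0.0253).

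Values that moved with this split are given beside it. The S3 segment marker Slc7a13 was at 1002 to 2302 CPM in the low-share libraries and at 675 to 1156 CPM in the others, and the sum of all 7 S3 markers was 7256 to 10148 CPM against 6120 to 8020 CPM. The sum of the 8 markers of the first proximal segments was 6227 to 8045 CPM against 6992 to 10373 CPM. The 6 hepatocyte markers, which include apolipoproteins, summed to 229 to 267 CPM in the low-share libraries and to 316 to 438 CPM in the others, without overlap. No marker of these 3 lists was at 0 in all libraries. Reads on no annotated gene were 16.1 to 19.9% of the reads counted in the low-share libraries and 12.1 to 16.3% in the others. The canonical transcripts of Acaa1a and Acaa1b have a GC content of 59.5% and 58.9%, those of Ehhadh and Crot 47.1% and 44.5%, and the median of the genes tested was 49.9%. Over 17104 genes, the log2 fold change of low against higher share had a Spearman's rho of 0.37 with GC content and -0.26 with transcript length. The part of marker levels, reads outside genes, GC content and length in these differences was not tested, and in bulk kidney fewer cells of a type and less RNA per cell cannot be told apart.

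**Figure D4:**
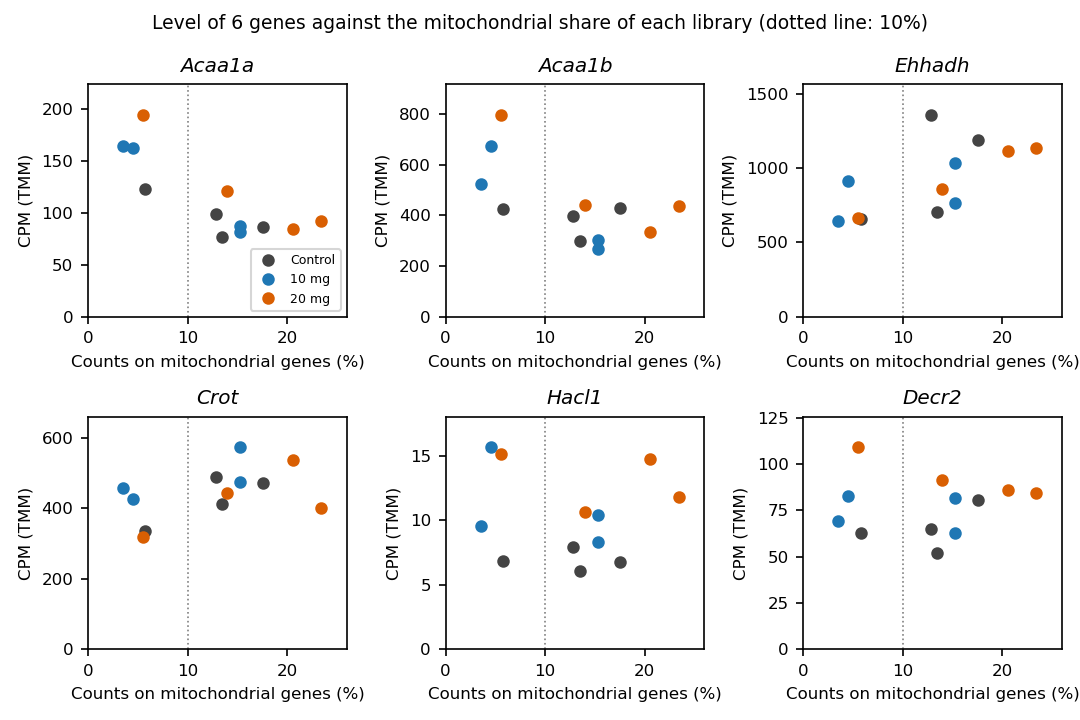
CPM of 6 of the genes against the percent of counts on mitochondrial genes in each of the 12 libraries, coloured by group, with a dotted line at 10%. Acaa1a and Acaa1b are highest left of the line, Ehhadh and Crot tend to be lower there, and Hacl1 and Decr2 have an r near 0 with the share (-0.06 and 0.06).

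Among themselves, the 9 genes formed no single pattern over the 12 kidneys. The highest Pearson's r of log2 CPM was that of Acaa1a and Acaa1b, 0.90, and it was 0.92 after removal of the group means. How reads from stretches shared by both genes were counted is not given, and their part in this value was not tested. Ehhadh, Abcd3 and Crot went together, with r of 0.78 for Ehhadh and Abcd3 and 0.71 for Crot and Abcd3. Acaa1a and Abcd3 went in opposite directions (-0.68). Decr2 and Phyh had an r of 0.83, which was 0.62 within groups. Hacl1 and Decr2 had an r of 0.71, which was 0.31 within groups, so the value was lower once the group means, which the choice of genes used, were removed. Decr2 and Pex11a had 0.69 over all kidneys and 0.86 within groups.

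**Figure D5:**
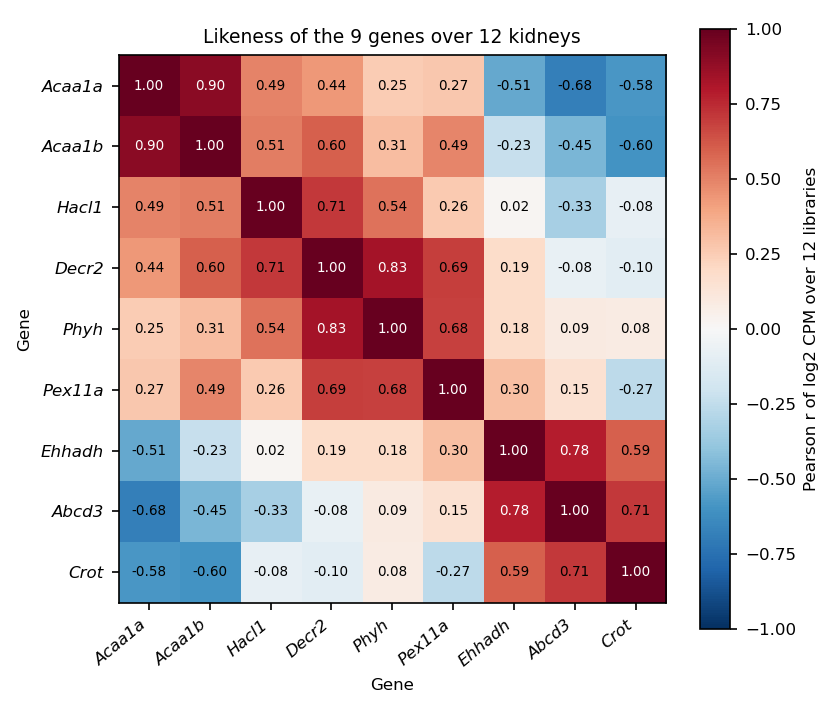
Pearson's r of log2 CPM for each pair of the 9 genes over 12 libraries, from -1 (blue) to 1 (red), with the value in each cell. The thiolase pair stands at 0.90, the block of Ehhadh, Abcd3 and Crot at 0.59 to 0.78, and both thiolases are negative with Abcd3, Crot and Ehhadh.

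Of the 17163 genes tested, the 5 whose log2 CPM was most like that of Hacl1 over the 12 libraries were Slc6a19os (r = 0.93), Gm55632 (0.90), Entpd2 (0.90), Tprkb (0.89) and A730063M14Rik (0.89). For the other genes the closest was Cyp2j9 for Decr2 (0.91), Retsat for Ehhadh (0.90), Mcrip1 for Acaa1a (0.99), Rnf31 for Acaa1b (0.96), Cd22 for Phyh (0.89), C2 for Pex11a (0.95), Ghr for Crot (0.94) and Fam149b for Abcd3 (0.93). None of these partners is another of the 9 genes. Each is the highest of many values over few libraries and is given as a description.

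Other peroxisomal genes were taken from lists of oxidation enzymes, peroxins and remaining peroxisomal proteins. Of 71 such genes tested, edgeR called 0 in each of the 3 comparisons, and DESeq2 also called 0. An unadjusted p under 0.05 was found for 1 gene at 10 mg, 6 at 20 mg and 5 for 20 mg against 10 mg. Of all 17163 genes tested, 973, 1450 and 1083 had such a p in the same order. The median log2 fold change at 20 mg was 0.01 for 31 oxidation enzymes, 0.06 for 19 peroxins and -0.02 for 21 other proteins, beside 0.01 for all genes. With the mitochondrial share as a covariate, 8 of the 71 were called at 20 mg (Abcd2, Abcd4, Acnat1, Acnat2, Hao2, Pex16, Pex6 and Pxmp2), beside 1386 of all genes in that fit.

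Of the reference enzymes, Hsd17b4 had a log2 fold change of 0.03 ± 0.18 and Cat one of -0.019 ± 0.22 at 20 mg. Groups without overlap at 20 mg were found for 4 of the 71 genes, 2 higher and 2 lower, where 2.67% of all genes were higher and 2.63% lower, so the count is near that of all genes. Acnat1, an acyl-CoA N-acyltransferase, was at 28.1, 25.3, 25.8 and 34.1 CPM in control mice and at 21.5, 19.5, 15.7 and 22.8 CPM at 20 mg, with a log2 fold change of -0.51 ± 0.16 (edgeR adjusted p = 0.356). Ddo, D-aspartate oxidase, was at 41.3 to 44.0 CPM in control mice and 31.3 to 39.8 CPM at 20 mg (-0.26 ± 0.11, adjusted p = 0.527). Higher without overlap were the peroxin of the import machinery Pex14 (0.19 ± 0.12, adjusted p = 0.744) and the membrane protein Pxmp4 (0.31 ± 0.14, adjusted p = 0.578), and none of the 4 passed the test.

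Neighbouring pathways were examined in the same fit. Of 19 genes of mitochondrial beta oxidation edgeR called 0 in each comparison (unadjusted p under 0.05 for 0, 1 and 0 genes at 10 mg, at 20 mg and between doses), with a median log2 fold change of -0.01 at 20 mg. Of 18 tested genes that respond to PPAR alpha in liver, such as the Cyp4a family and Pdk4, edgeR also called 0 (unadjusted p under 0.05 for 3, 4 and 0 genes). Beside both lists, 973, 1450 and 1083 of all 17163 genes had an unadjusted p under 0.05 in the same comparisons. In the PPAR alpha list 5 genes were above 0 at 10 mg and 14 at 20 mg, with medians of -0.17 and 0.26. For 20 mg against 10 mg 17 of 18 were above 0, with a median of 0.39 beside -0.0033 for all genes. These comparisons share groups, and no test of the list was made.

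Of 13 genes of PPAR receptors, their partners and the clock, listed with earlier results of these data known, edgeR called 3 at 10 mg and 5 at 20 mg. Of all genes, 0.0291% and 0.303% were called at these doses. Ppard, the PPAR delta receptor, was at 34.9 to 41.4 CPM in control mice, 18.2 to 19.4 CPM at 10 mg and 15.2 to 21.9 CPM at 20 mg, with log2 fold changes of -0.98 ± 0.12 (edgeR adjusted p = 0.00899) and -1.03 ± 0.13 (adjusted p = 0.00346). Ppara, Pparg and the 3 RXR genes were not called. Dbp, a D-box activator, was at 1.43 to 2.92 CPM in control mice and at 22.1 to 26.9 CPM at 20 mg (3.35 ± 0.21), and Per3 (1.39 ± 0.15), Nr1d1 (1.33 ± 0.24) and Nr1d2 (0.80 ± 0.14) were called higher at 20 mg. Against these, the change of Hacl1 of 0.92 at 20 mg was between those of Nr1d2 and Nr1d1 in size, with differing read depth behind each gene.

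Of the markers of cell types and segments, none passed the test at 10 mg and 2 did at 20 mg. Of all genes tested, 0.0291% and 0.303% were called at these doses. The summed level of the 8 markers of the first proximal segments was 8045 to 10373 CPM in control mice. It was 6551 to 8531 CPM at 10 mg and 6227 to 7552 CPM at 20 mg. At 20 mg every sum lay below every control sum, where 2.63% of single genes lay wholly below the control group. All 8 markers had a log2 fold change below 0 at that dose, and 1 (Slc5a2) was called lower. The 7 adipocyte markers summed to 32.5 to 172 CPM in control mice, 17.5 to 76.1 CPM at 10 mg and 10.1 to 40.9 CPM at 20 mg. All 6 tested were below 0 at both doses, and 1 of them (Car3) was called lower at 20 mg. Sums of the S3 markers, 6558 to 8020, 6935 to 10148 and 6120 to 8340 CPM, overlapped in all 3 groups. Of the 7 S3 markers, 3 were below 0 at 20 mg. The 4 distal convoluted tubule markers were all below 0 at both doses. Their sums overlapped, at 627 to 1036 CPM in control mice, 672 to 817 CPM at 10 mg and 577 to 655 CPM at 20 mg. No marker of the remaining lists was called. No marker of these lists was at 0 in all libraries. The part of tissue composition in the differences of Hacl1 and Decr2 was not tested.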

How the data were processed

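Kidney poly(A) RNA libraries of 12 mice were analysed, with groups taken from the sample titles. The authors mapped Flexbar-trimmed reads to GRCm39 by STAR 2.7.5c, counted them by HTSeq 1.99.2, and deposited whole counts per Ensembl gene, not normalized. The annotation release, strand setting and use of molecular identifiers are not given in the sources used here, so repeated reads of 1 molecule may remain. Identifiers were matched to GENCODE vM39 (99.0% matched). Genes kept by filterByExpr (17163) were fitted with edgeR 4.0.16 in R 4.3.3 (TMM, quasi-likelihood, 3 group means, all 12 libraries) and called at a Benjamini-Hochberg adjusted p under 0.1. The code was tested on simulated data, where it called 63.6% of genes changed by 1 on the log2 scale at 20 mg. Smaller changes can therefore be missed, and a gene not called is not shown to be unchanged. The 9 genes, the lists and the tests were chosen with earlier results of these data known. Named were the 9 genes, the reference enzymes Cat and Hsd17b4, each called gene of the lists, and per list up to 3 genes with the largest change at 20 mg and no overlap with the control group, except in likeness, where the 5 highest r (Hacl1) or the highest r were taken. Alternatives were RLE, DESeq2 1.42.0, limma-voom (limma 3.58.1), other count filters, a fit of 2 groups at a time, a replicate block, the mitochondrial share as covariate or factor, removal of mitochondrial and rRNA genes, an adjusted p under 0.05 and leaving out each library. P-values rest on differences among 4 mice per group, and among fewer where libraries were left out. Motif windows were read from GRCm39 around the starts of canonical transcripts. Proteins were not used here. Some results of the rule are not reported here.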

Additional observations from a re-analysis of the deposited data

Results flagged for a closer look

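In groups of 4 mice, values far from the other 3 were looked for in 63 groups of 21 genes by Dixon's ratio of the gap to the range (above its 95% critical value for 4 mice). Chance flags about 1 in 20 groups, and 3 of the 63 were found, 1 of them among the 27 groups of the 9 genes. Phyh in the 20 mg group was at 490 CPM in mouse 2 and at 554 to 560 CPM in the other 3. Nr1d1 in the 20 mg group was at 40.1 CPM in mouse 3, a library of low mitochondrial share, and at 74.4 CPM or above in the others. Pxmp4 in the 10 mg group was at 215 CPM in mouse 3, also of low mitochondrial share, and at 166 CPM or below in the others. No explanation was tested.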

How the results depend on the processing

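The number of the 9 genes called at 20 mg against control was 1 in the main fit. It was 0 with RLE normalization, limma-voom, the replicate block or an adjusted p under 0.05, 3 with the mitochondrial share as a covariate, 2 with low share as a factor, and 0 to 1 when each library was left out. At 10 mg against control and for 20 mg against 10 mg it was 0 in all 24 alternatives. Of the other peroxisomal genes, 2 were called at 20 mg without a filter on low counts, 8 with the mitochondrial covariate and 1 with the factor, and 1 for 20 mg against 10 mg without a filter. The causes were not tested. Against control, 431 of 432 values of single genes moved by less than the SD between mice, the exception being Acaa1b at 10 mg without the libraries of low share (-0.39), an alternative added after the data were seen. Part of the 432 values could hardly move. An adjusted p under 0.05 uses the fold changes of the main fit, and leaving out a library of the group not compared changes them little. Against control 14 of 432 values, none of them called in the main fit, changed sign: at 10 mg Acaa1a (-0.060 without the libraries of low share), Acaa1b in 4 alternatives (-0.39 to -0.068) and Phyh in 1 (-0.012), and at 20 mg Ehhadh in 3 (0.058 to 0.15) and Crot in 5 (0.011 to 0.11). Between the doses 14 of 216 values changed sign. Ehhadh was -0.13 and Abcd3 -0.097 with the covariate, and Abcd3 -0.030 with the factor and -0.0595 to 0.0983 when single libraries were left out. Acaa1a was 0.0029 without a filter, 0.41 with the covariate, 0.21 with the factor, 0.24 without the libraries of low share and -0.32 to 0.16 when single libraries were left out. Acaa1b was -0.13 to 0.46 when single libraries were left out. Over all genes, 5, 52 and 0 were called at 10 mg, at 20 mg and between doses. These counts were 34, 167 and 13 with DESeq2, 331, 416 and 256 without a filter, 15, 1386 and 62 with the covariate, 12, 293 and 0 with the factor, 26, 107 and 0 without the libraries of low share, 3, 23 and 0 at an adjusted p under 0.05, and 2 to 8, 14 to 54 and 0 when single libraries were left out. Equal replicate numbers mark no shared litter or day in the labels, and same-numbered mice had correlations of -0.33 to 0.32 in their deviations, so they were not taken as paired. With the replicate block, 27 genes were called at 20 mg and Hacl1 had a log2 fold change of 0.90. The order of levels in control kidney depended on the length used for 7 of the 9 genes, and Ehhadh and Hacl1 kept their places. The place of Hacl1 is still uncertain, since the counting of reads shared with Gm49387 is not given. Hacl1 had the lowest counts of the 9 genes, 112 to 347 reads a library.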
